A study of Homo sapiens with 24 samples.

Results

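The small proline-rich (SPRR) genes were taken as the 10 rows of the count table that carry the symbols SPRR1A, SPRR1B, SPRR2A, SPRR2B, SPRR2D, SPRR2E, SPRR2F, SPRR2G, SPRR3 and SPRR4, out of 26364 rows, and all 10 were among the 15757 genes with enough reads to be tested. RNA was sequenced from nTERT-1 cells, an immortalised human keratinocyte line. The groups were knockdowns of KAT2A (KAT2A_KD), of KAT2B (KAT2B_KD) and of both (KAT2AB_KD), set against the control genotype NT. Each genotype was collected at the stages Subconfluent, Confluent and Differentiated, the last on day 4 in the deposited sample table, with 2 libraries per group and 24 in all. All groups share the same line. The sources used here give neither the knockdown method nor whether the libraries came from separate cultures, so every p-value measures only the spread between libraries, which may be technical.

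SPRR proteins are small, soluble precursors that transglutaminases cross-link into the cornified envelope, the insoluble shell that replaces the plasma membrane of a keratinocyte as it dies at the skin surface. Their genes form a cluster inside the epidermal differentiation complex on chromosome 1, beside the genes for involucrin, loricrin and the late cornified envelope (LCE) proteins. SPRR1 genes are classical squamous differentiation markers, SPRR2 is a group of near-identical copies, SPRR3 is best known from oral and oesophageal epithelium, and SPRR4 has been linked to ultraviolet exposure of skin. KAT2A and KAT2B are paralogous histone acetyltransferases.

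Library totals ran from 8010178 to 16054003 counts. KAT2A had 1.67 to 10.4 CPM in the 6 KAT2AB_KD libraries and 3.03 to 5.06 CPM in the 6 KAT2A_KD libraries, against 9.995 to 38.5 CPM in the 6 NT libraries, so KAT2AB_KD Subconfluent library 2 (10.4 CPM) lay above NT Differentiated library 2 (9.995 CPM) but below both NT libraries of its own stage. KAT2B had 0.902 to 18.9 CPM in KAT2AB_KD and 0.152 to 8.59 CPM in KAT2B_KD, against 4.06 to 44.8 CPM in NT, and the knockdown libraries lay below the NT libraries within every stage. CPM is the read count scaled to a common library size, after TMM scaling, a correction for the composition of each library. Basal keratinocyte markers summed to between 17909 and 56550 CPM in every library, against 1.44 to 53.8 CPM for 8 fibroblast markers and 4.87 to 17.7 CPM for 8 melanocyte markers. The fibroblast sum was 31.9 to 53.8 CPM in Differentiated and 1.64 to 7.56 CPM in Confluent libraries, so it moved with the stage changes below, and its part in them was not tested; only 2 of the 8 markers had enough reads to be tested, and COL1A1 alone rose. In bulk RNA, more cells that express a gene and more RNA per cell cannot be told apart.

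The SPRR2 copies are shown first because their near-identity decides how their rows can be read. The GENCODE 29 coding sequences (GRCh38, chromosome 1, minus strand) of the 5 SPRR2 members of 219 bases follow, 5′ to 3′, with capitals at each base that differs from SPRR2A.
SPRR2A: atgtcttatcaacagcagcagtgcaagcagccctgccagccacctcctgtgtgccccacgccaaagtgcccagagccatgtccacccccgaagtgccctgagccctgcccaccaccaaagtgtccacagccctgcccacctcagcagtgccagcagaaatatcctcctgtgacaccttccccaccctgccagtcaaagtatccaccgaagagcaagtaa
SPRR2B: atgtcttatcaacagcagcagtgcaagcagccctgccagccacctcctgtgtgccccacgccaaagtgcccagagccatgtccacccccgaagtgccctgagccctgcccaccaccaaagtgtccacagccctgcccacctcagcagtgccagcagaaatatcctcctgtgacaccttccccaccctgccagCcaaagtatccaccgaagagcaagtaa
SPRR2D: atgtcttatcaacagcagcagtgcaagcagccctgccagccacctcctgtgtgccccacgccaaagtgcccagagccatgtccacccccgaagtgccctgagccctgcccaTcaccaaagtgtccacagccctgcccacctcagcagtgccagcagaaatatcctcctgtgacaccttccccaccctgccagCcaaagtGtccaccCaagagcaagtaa
SPRR2E: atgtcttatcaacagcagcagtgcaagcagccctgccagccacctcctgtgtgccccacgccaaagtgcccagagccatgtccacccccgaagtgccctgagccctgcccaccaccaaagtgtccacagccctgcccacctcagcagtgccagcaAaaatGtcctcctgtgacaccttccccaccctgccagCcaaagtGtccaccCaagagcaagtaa
SPRR2F: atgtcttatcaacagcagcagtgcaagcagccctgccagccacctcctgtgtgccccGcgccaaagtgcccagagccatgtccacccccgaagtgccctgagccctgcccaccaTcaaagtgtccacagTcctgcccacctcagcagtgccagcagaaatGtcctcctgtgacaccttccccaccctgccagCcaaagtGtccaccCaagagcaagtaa
SPRR2B differed from SPRR2A at 1 base, SPRR2D at 4, SPRR2E at 5 and SPRR2F at 7, and the first 111 bases were the same in SPRR2A, SPRR2B, SPRR2D and SPRR2E. Of the 170 windows of 50 bases in the coding sequence, 84.1% of SPRR2A, 88.2% of SPRR2B, 64.1% of SPRR2D, 70.6% of SPRR2E and 17.1% of SPRR2F were found unchanged in another SPRR transcript. SPRR2G, whose coding sequence is 222 bases long, shared 24.9% of its windows. SPRR1A and SPRR1B, identical at 96.3% of 270 coding bases, shared 11.3%, and SPRR3 and SPRR4 shared 0%. The shares depended on the window length. With windows of 36 and 75 bases they were 85.3% and 81.4% for SPRR2A and 89.1% and 86.2% for SPRR2B. They were 80.4% and 34.5% for SPRR2D, 38.6% and 0% for SPRR2F, and 20.4% and 0% for SPRR1A and for SPRR1B. Windows were taken from coding bases only, so untranslated bases, which reads may also cover, were left out. The read length and the treatment of reads that match several places are not given in the sources used here, so how such reads were assigned was not tested.

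Most SPRR2 rows kept a similar ratio to the SPRR2A count across Differentiated libraries, with a wider relative spread for SPRR2G. SPRR2B had 0.954 to 1.07 times the SPRR2A count in the 8 Differentiated libraries, SPRR2D 0.879 to 0.959 times, SPRR2E 0.964 to 1.20 times and SPRR2F 0.776 to 0.948 times. SPRR2G had 0.226 to 0.358 times the SPRR2A count, with 0.354 and 0.358 in NT and 0.248 and 0.227 in KAT2B_KD. The row of SPRR2C, an annotated pseudogene and no member, had 0.782 to 0.924 times the SPRR2A count in the same libraries. Counts were not copies of each other: SPRR2B and SPRR2A had equal counts in 3 of 23 libraries with reads for both, and SPRR2E and SPRR2A in 0 of 23. Ratios differed by stage for some rows. The median SPRR2E ratio was 0.694 at Subconfluent, 0.637 at Confluent and 1.03 at Differentiated, and that of SPRR2B 0.959, 0.922 and 0.981. SPRR1A had 0.668 to 0.784 times the SPRR1B count in Differentiated libraries. Whether shared reads gave any of these ratios was not tested. As the sequences are near-identical, the 6 SPRR2 members were not read as 6 independent measurements. The main results below are also given for the 7 SPRR2 rows, SPRR2C included, summed into 1 feature.

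**Figure D1:**
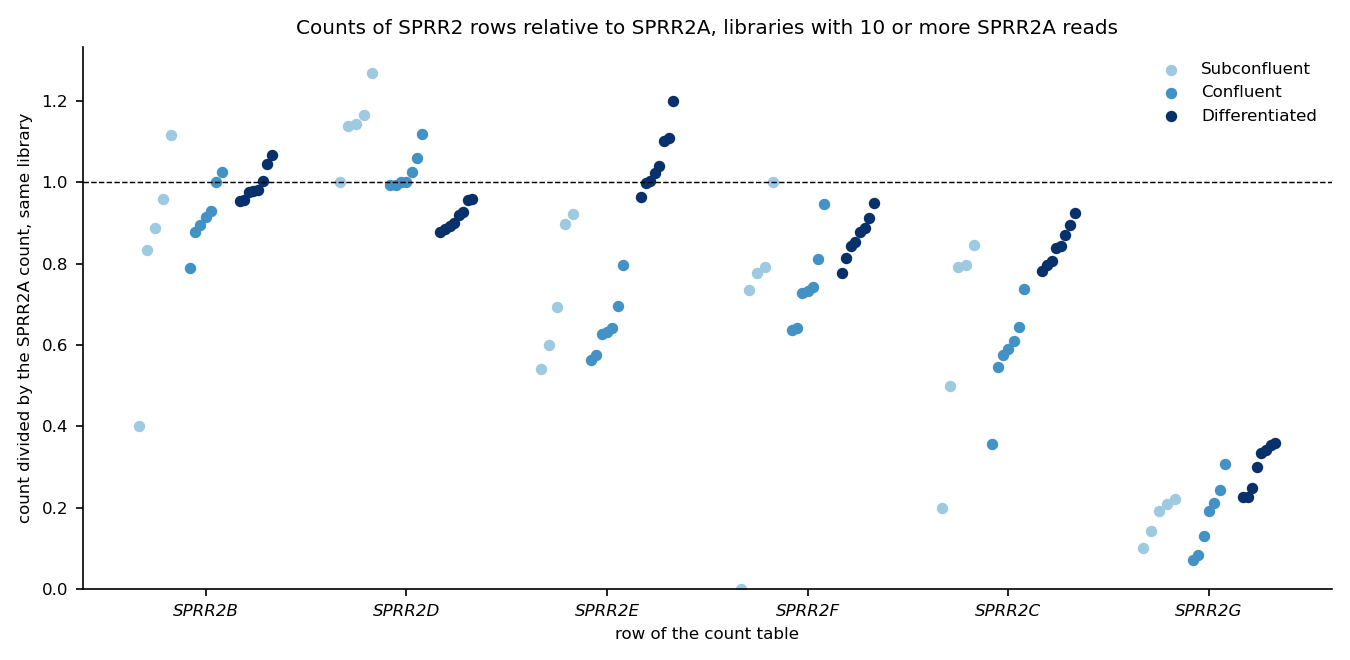
Count of each SPRR2 row divided by the SPRR2A count of the same library, for libraries with 10 or more SPRR2A reads; each point is 1 library, coloured by stage and ordered by value within a stage. In Differentiated libraries the ratios were between 0.776 and 1.20 for every row except SPRR2G, which was between 0.226 and 0.358.

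All 10 SPRR genes rose with differentiation in every genotype. SPRR1A, a cross-linked envelope precursor, had 1229 and 1212 CPM in NT Differentiated libraries, against 9.97 and 19.9 CPM in NT Confluent libraries. SPRR2A had 140 and 135 CPM in NT Differentiated libraries, against 2.59 and 0.997 CPM in NT Confluent libraries. SPRR3 had 215 and 222 CPM in NT Differentiated libraries, against 3.93 and 4.84 CPM in NT Confluent libraries. For each of the 10 members, both Differentiated libraries lay above both Confluent libraries of the same genotype. The share of all tested genes that separated in this way was not counted, here or below. In edgeR's quasi-likelihood test with Benjamini-Hochberg adjustment over all tested genes, 10 of 10 members were higher in Differentiated than in Confluent cells in KAT2A_KD (21.4% of all tested genes were higher), KAT2B_KD (19.3%), KAT2AB_KD (22.6%) and NT (24.3%). The median log2 change over the 10 members was 5.72 in KAT2A_KD, 6.26 in KAT2B_KD, 4.90 in KAT2AB_KD and 6.40 in NT, beside medians of -0.0171 to 0 over all tested genes.

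SPRR4 was at 0 reads in Confluent KAT2A_KD, KAT2B_KD and NT cells, so its rise could only be bounded, at 3 counts over the group. It was at least 36.7-fold higher in Differentiated than in Confluent cells in KAT2A_KD, at least 1.65-fold higher in KAT2B_KD and at least 29.2-fold higher in NT. In KAT2AB_KD, where SPRR4 already had 10 and 12 reads at Confluent, it rose by 3.31 ± 0.64 (log2 ± SE, adjusted p = 0.000646). The KAT2B_KD call rested on 5 reads in all and was lost on leaving out any 1 of its 4 libraries (adjusted p 0.0598 to 0.175). With the SPRR2 rows summed, the rise was 5.90 in KAT2A_KD, 5.99 in KAT2B_KD, 5.21 in KAT2AB_KD and 6.60 in NT, each past the threshold (largest adjusted p = 9.93e-07).

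**Figure D2:**
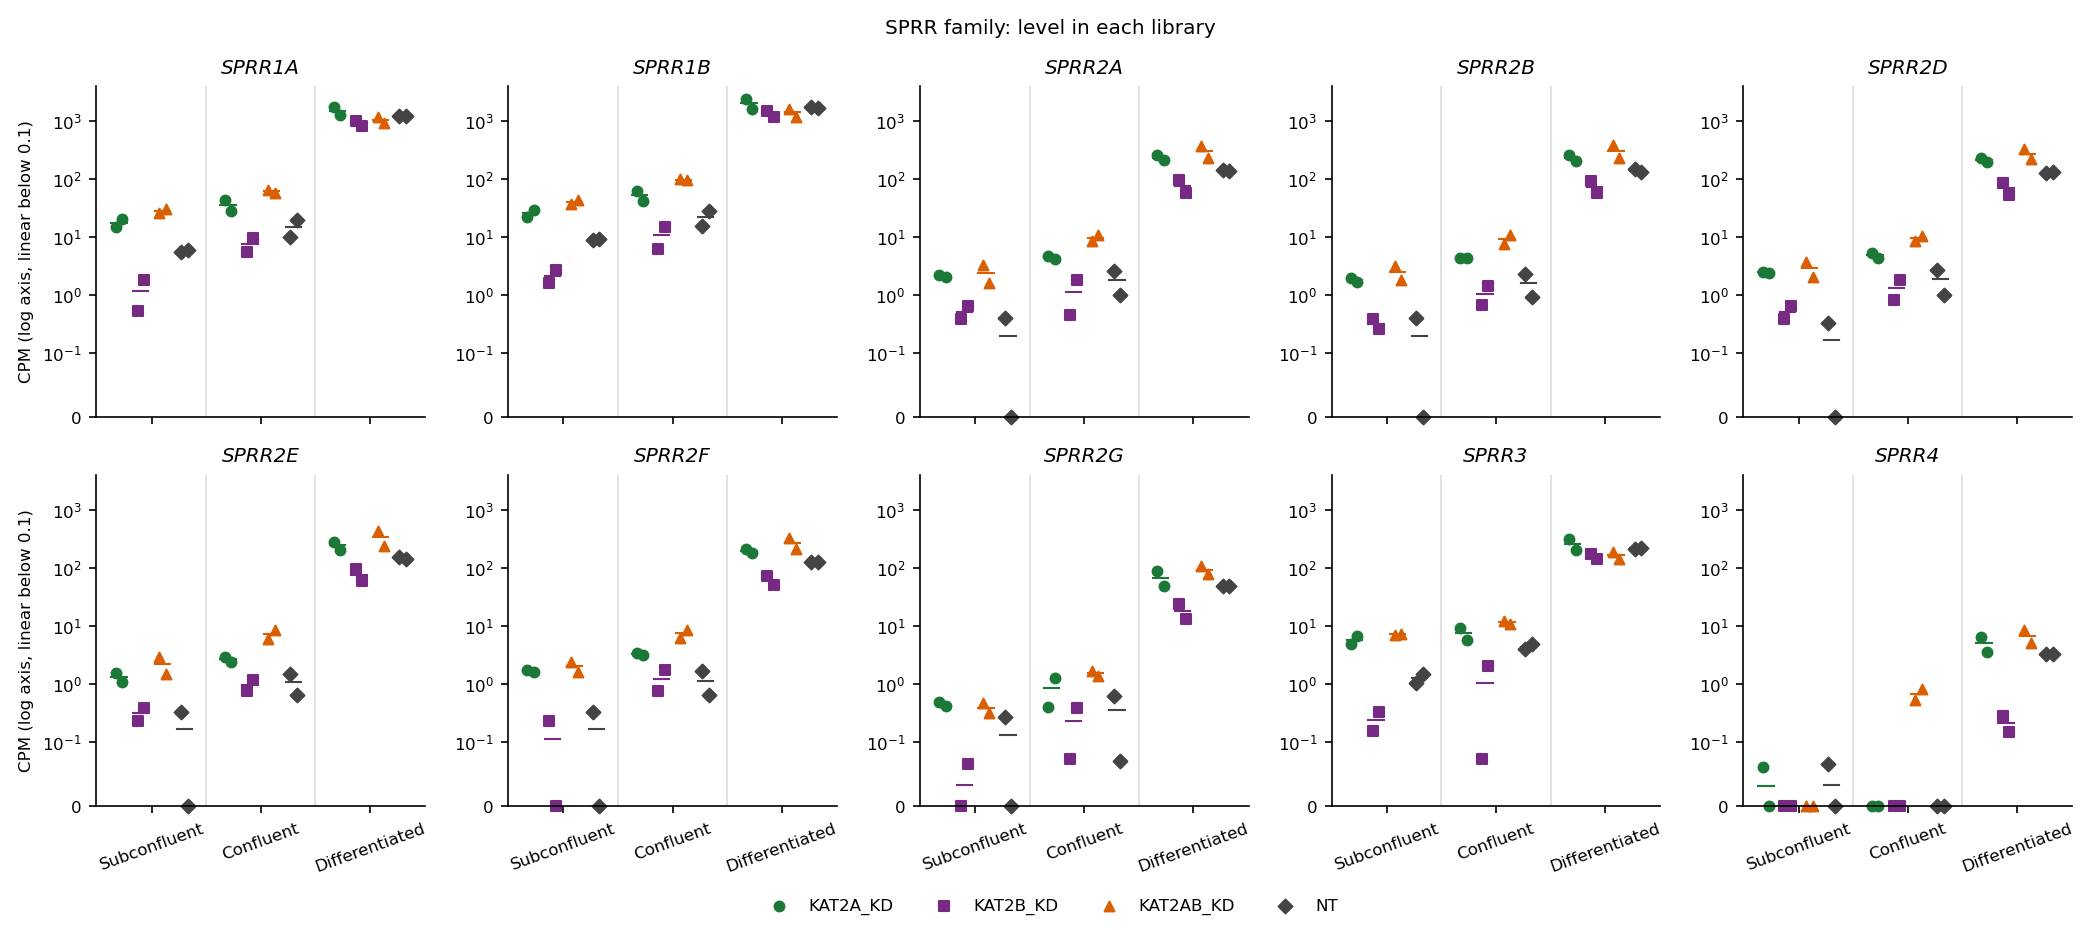
Level of each SPRR gene in CPM (log axis, linear below 0.1) in each of the 24 libraries, by stage and, within a stage, by genotype; points are libraries and bars are means of 2. All 10 genes are highest at Differentiated, and NT Subconfluent library 2 sits at 0 for every SPRR2 gene.

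Most envelope and LCE genes and 22 of 32 transcription factors rose at the same step, where 24.3% of all genes rose and 26.1% fell in NT. Of 21 tested envelope precursors and cross-linkers, 19 were higher and 1 was lower in Differentiated than in Confluent NT cells, with IVL, which encodes involucrin, up by 7.09 and SBSN, which encodes suprabasin, up by 12.48 on the log2 scale. The 1 that fell was S100A10, a small calcium-binding-family protein, by 1.44. All 18 LCE genes rose in NT cells, led by LCE3E (8.47). Of 32 transcription factors reported at SPRR promoters or in late differentiation, 22 rose and 4 fell, HOPX (10.57) and MAF (6.28) rising and the AP-1 subunit FOSL1 (-1.94) falling. The median log2 change was 7.09 for the envelope list, 6.87 for the LCE genes and 1.80 for the transcription factors.

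From Subconfluent to Confluent, 0 to 4 SPRR genes per genotype passed in edgeR, and the count depended on the tool. In KAT2B_KD cells 2 members rose, SPRR1A by 2.61 ± 0.45 (adjusted p = 0.00404) and SPRR1B by 2.28 ± 0.41 (adjusted p = 0.00512), where 1.09% of all genes were higher. In KAT2AB_KD cells SPRR2A, SPRR2B, SPRR2D and SPRR2F rose by 1.71 to 1.97 (adjusted p 0.0368 to 0.0498; 0.343% of all genes were higher). In NT cells SPRR2D rose by 3.25 ± 0.74 (adjusted p = 0.0383; 0.685% of all genes were higher). In KAT2A_KD cells 0 of 10 passed in edgeR (0.235% of all genes passed in either direction), with 6 members at an unadjusted p under 0.05 and 0 by DESeq2. In KAT2AB_KD 9 members had an unadjusted p under 0.05 and 8 passed by DESeq2, in NT 8 and 8, and in KAT2B_KD 5 and 3. Of the 15757 tested genes, 984 had an unadjusted p under 0.05 in KAT2A_KD, 1343 in KAT2AB_KD, 1827 in NT and 2071 in KAT2B_KD. How many of all genes passed by DESeq2 was not counted, here or below.

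These early calls depended on single libraries. The KAT2AB_KD count went to 0 on leaving out any 1 of the 4 libraries, the NT count to 0 without NT Subconfluent library 1 or 2 or NT Confluent library 1, and the KAT2B_KD count to 0 without KAT2B_KD Subconfluent library 1 or KAT2B_KD Confluent library 2. It went to 3 without KAT2B_KD Confluent library 1. The summed SPRR2 rows changed by 1.80 in KAT2AB_KD (adjusted p = 0.199) and 2.75 in NT (adjusted p = 0.0630), so neither passed. NT Subconfluent library 2 had 0 reads in every SPRR2 row, while NT Subconfluent library 1 had 36 over the 7 rows.

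Before differentiation, the double knockdown had more SPRR RNA than NT. At Subconfluent, SPRR1A had 25.5 and 29.9 CPM in KAT2AB_KD libraries, against 5.55 and 5.92 CPM in NT libraries. SPRR3 had 6.97 and 7.40 CPM in KAT2AB_KD libraries, against 1.06 and 1.46 CPM in NT libraries. SPRR2A had 3.25 and 1.63 CPM in KAT2AB_KD libraries, against 0.396 and 0 CPM in NT libraries. The knockdown and NT libraries did not overlap for any of these 3 genes. In all, 8 of 10 members were higher in KAT2AB_KD than in NT at Subconfluent (1.86% of all genes were higher), all but SPRR2G and SPRR4.

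The increase was 2.27 ± 0.38 on the log2 scale for SPRR1A (adjusted p = 0.00154), 2.14 ± 0.36 for SPRR1B (adjusted p = 0.00202) and 2.52 ± 0.50 for SPRR3 (adjusted p = 0.00714). The 5 SPRR2 members that passed rose by 3.37 to 3.89, and the summed SPRR2 rows by 3.48 ± 0.67 (adjusted p = 0.00568). Without NT Subconfluent library 2, the library with 0 SPRR2 reads, 3 members passed (SPRR1A, SPRR1B and SPRR2D), and without KAT2AB_KD Subconfluent library 1, 4 passed. SPRR1A and SPRR1B passed on leaving out any 1 of the 4 libraries, with adjusted p at most 0.0437.

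At Confluent, SPRR1A had 65.1 and 57.9 CPM in KAT2AB_KD libraries, against 9.97 and 19.9 CPM in NT libraries. SPRR2A had 8.51 and 10.6 CPM in KAT2AB_KD libraries, against 2.59 and 0.997 CPM in NT libraries. SPRR4 had 0.529 and 0.833 CPM in KAT2AB_KD libraries, from 10 and 12 reads, against 0 reads in both NT libraries. All 10 members lay higher in both KAT2AB_KD libraries than in both NT libraries, and 8 passed (1.39% of all genes were higher), all but SPRR2G and SPRR3. The median log2 difference was 2.39 over the 10 members and 0.00339 over all tested genes. How many of all genes separated between the libraries was not counted. SPRR1A rose by 2.04 ± 0.36 (adjusted p = 0.00255), SPRR1B by 2.15 ± 0.35 (adjusted p = 0.00138) and the summed SPRR2 rows by 2.52 ± 0.56 (adjusted p = 0.0182).

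SPRR4 was at least 5.90-fold higher in KAT2AB_KD than in NT at Confluent, a call lost on leaving out any 1 of the 4 libraries (adjusted p 0.0634 to 0.193). The count of members that passed was 5 without NT Confluent library 1 and 2 without NT Confluent library 2. The 2 that then passed were SPRR1A and SPRR1B. In NT library 1 SPRR1A stood at 9.97 CPM and in NT library 2 at 19.9 CPM, while SPRR2A stood at 2.59 CPM in the first and 0.997 CPM in the second, so the order of the NT libraries differed between the SPRR1 and SPRR2 genes.

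A minority of the listed envelope, LCE and transcription factor genes also rose at both early stages, where 1.86% of all genes rose at Subconfluent and 1.39% at Confluent. In KAT2AB_KD against NT, 5 of 21 envelope genes rose at Subconfluent and 7 at Confluent, with 0 lower at either stage. TGM1, the transglutaminase that anchors envelope precursors at the membrane, rose by 3.57 at Subconfluent and 1.499 at Confluent, and IVL by 2.65 at Confluent. Of 18 LCE genes, 2 rose at Subconfluent (LCE3E by 7.55 and LCE3D by 7.68) and 3 at Confluent. Of 32 transcription factors, 4 rose at Subconfluent and 6 at Confluent, among them ZNF750 (3.10 and 1.92), a regulator of late keratinocyte differentiation. COL1A1, a fibroblast marker, was also higher by 1.62 at Subconfluent and 1.38 at Confluent, and its part in these results was not tested.

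In the single KAT2A knockdown, mean SPRR1A was above NT at both early stages, but the difference passed at neither in edgeR. Fewer members of the family passed in edgeR than in the double knockdown. At Subconfluent, SPRR1A had 14.7 and 20.4 CPM in KAT2A_KD libraries, against 5.55 and 5.92 CPM in NT libraries. The difference was 1.61 ± 0.38 on the log2 scale (adjusted p = 0.0774). At Confluent, SPRR1A had 43.2 and 28.4 CPM in KAT2A_KD libraries, against 9.97 and 19.9 CPM in NT libraries. In edgeR, SPRR2D passed at Subconfluent, by 3.66 ± 0.70 (adjusted p = 0.0211; 0.267% of all genes were higher), and it did so on 5 NT reads and on no fit that left out 1 of the 4 libraries. The other 9 did not pass in edgeR, whereas 8 of 10 members had an unadjusted p under 0.05 and 8 passed by DESeq2. Of all 15757 tested genes, 896 had an unadjusted p under 0.05 at this stage. At Confluent 0 of 10 passed in edgeR (0.647% of all genes in either direction), with values of 0.79 to 1.54 for the 9 members with reads, 7 of them at an unadjusted p under 0.05 and 4 past the threshold by DESeq2. Of all tested genes, 1221 had an unadjusted p under 0.05 at Confluent. The summed SPRR2 rows differed by 3.12 (adjusted p = 0.05002) at Subconfluent, just above the threshold, and 1.41 (adjusted p = 0.483) at Confluent.

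Before differentiation, the KAT2B knockdown had the lowest mean SPRR1A, SPRR1B and SPRR3 levels of the 4 genotypes. At Subconfluent, SPRR1A had 0.533 and 1.83 CPM in KAT2B_KD libraries, against 5.55 and 5.92 CPM in NT libraries. SPRR1B had 1.60 and 2.68 CPM in KAT2B_KD libraries, against 8.92 and 9.36 CPM in NT libraries. The libraries did not overlap, yet the differences of -2.23 ± 0.46 (adjusted p = 0.0650) and -2.08 ± 0.41 (adjusted p = 0.0528) missed the threshold. In edgeR 0 of 10 members passed in KAT2B_KD against NT at Subconfluent (0.0888% of all genes in either direction), with 3 at an unadjusted p under 0.05 and 2 past the threshold by DESeq2, and 0 at Confluent (0.463% in either direction), with 3 unadjusted and 1 by DESeq2. Of all 15757 tested genes, 705 had an unadjusted p under 0.05 at Subconfluent and 1076 at Confluent.

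At Confluent, SPRR3 had 0.0742 and 2.03 CPM in KAT2B_KD libraries, against 3.93 and 4.84 CPM in NT libraries. Its difference was -2.19 ± 0.56 (adjusted p = 0.106), and it passed without KAT2B_KD Confluent library 2. The SPRR2 members differed from NT by -0.72 to 0.08 there, with overlapping libraries for all 6. At Subconfluent the 4 of them with more than 3 reads in each group differed by 0.50 to 1.46, and none passed. Each of these 4 had only 5 or 6 NT reads, all in NT library 1, and 9 or 15 KAT2B_KD reads. SPRR2B and SPRR2E changed sign in fits that left out 1 library.

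**Figure D3:**
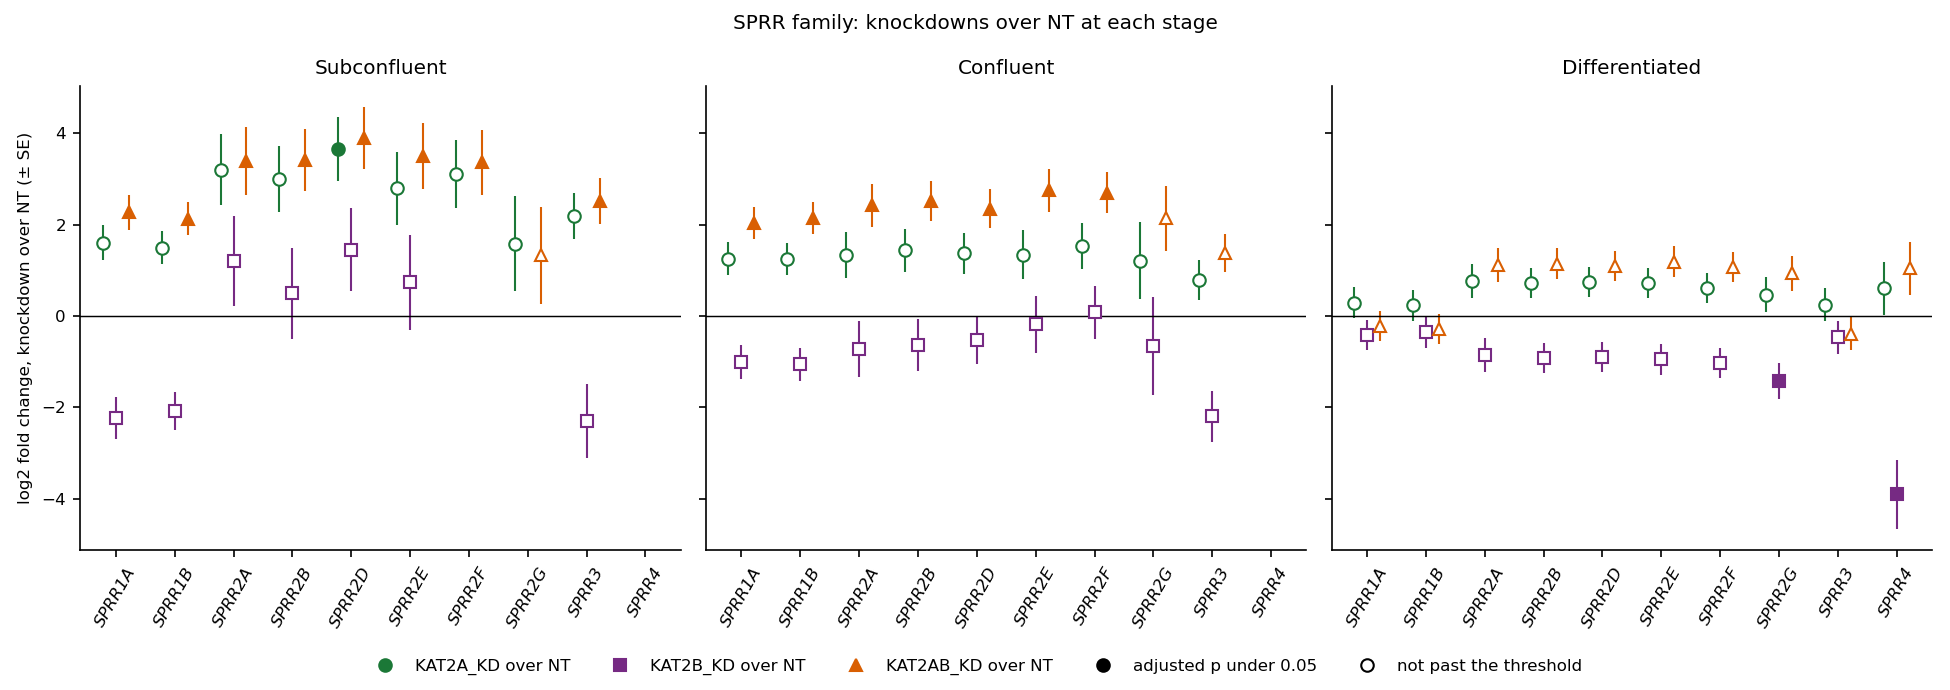
Log2 fold change (± SE) of each SPRR gene in each knockdown over NT at the 3 stages; filled symbols passed the adjusted p threshold of 0.05, and genes with a group at or under 3 reads are left out. KAT2AB_KD symbols are filled for 8 genes at Subconfluent and 7 of the 9 plotted at Confluent, and 2 KAT2B_KD symbols are filled at Differentiated.

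In differentiated cells the SPRR2 genes and SPRR4 were ordered KAT2AB_KD, KAT2A_KD, NT, KAT2B_KD by mean level, and SPRR1A was ordered KAT2A_KD, NT, KAT2AB_KD, KAT2B_KD. Against NT, neither SPRR1A, SPRR1B and SPRR3 nor the summed SPRR2 rows passed in any of the 3 knockdowns, and the difference between these sets was not tested. SPRR1A had 1184 and 914 CPM in KAT2AB_KD, 1740 and 1246 CPM in KAT2A_KD and 1008 and 821 CPM in KAT2B_KD, against 1229 and 1212 CPM in NT. SPRR2A had 366 and 231 CPM in KAT2AB_KD, 256 and 213 CPM in KAT2A_KD and 94.7 and 58.4 CPM in KAT2B_KD, against 140 and 135 CPM in NT. In the order for SPRR2A, the KAT2AB_KD and KAT2A_KD libraries overlapped, and each other pair of neighbours was apart.

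Against NT, few of these differences passed. In KAT2B_KD, SPRR2G was lower by -1.42 ± 0.40 (adjusted p = 0.0425) and SPRR4 by -3.90 ± 0.76 (adjusted p = 0.00811), and 3.18% of all genes were lower. SPRR4 had 0.281 and 0.149 CPM in KAT2B_KD libraries, from 3 and 2 reads, against 3.24 and 3.30 CPM in NT libraries, from 37 and 35 reads. SPRR2G had 23.5 and 13.2 CPM in KAT2B_KD libraries, against 49.6 and 48.5 CPM in NT libraries. All 10 members lay lower in both KAT2B_KD libraries than in both NT libraries. The median log2 difference was -0.901 over the 10 members and 0.0189 over all tested genes. How many of all genes separated between the libraries was not counted. The SPRR2G call was lost on leaving out any 1 of the 4 libraries (adjusted p 0.0508 to 0.210), and the SPRR4 call without KAT2B_KD Differentiated library 2 (adjusted p = 0.0712).

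In KAT2AB_KD the 6 SPRR2 members differed from NT by 0.93 to 1.19 (adjusted p 0.0675 to 0.222), SPRR1A by -0.22 ± 0.34 and SPRR3 by -0.39 ± 0.36. The SPRR2 and SPRR4 genes lay higher in both KAT2AB_KD libraries, and SPRR1A, SPRR1B and SPRR3 lower in both, a split not counted over all genes. In edgeR 0 of 10 passed (2.74% of all genes in either direction), with 6 at an unadjusted p under 0.05 and 5 past the threshold by DESeq2. KAT2A_KD gave 0.23 to 0.77, and 0 of 10 passed in edgeR (1.22% in either direction), with 4 at an unadjusted p under 0.05 and 0 by DESeq2. Of all 15757 tested genes, 2485 had an unadjusted p under 0.05 in KAT2AB_KD and 2062 in KAT2A_KD. The summed SPRR2 rows differed from NT by 1.13 in KAT2AB_KD (adjusted p = 0.288), 0.71 in KAT2A_KD (adjusted p = 0.627) and -0.94 in KAT2B_KD (adjusted p = 0.353).

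The knockdowns were also set against each other. These comparisons and those with NT reuse the same libraries, so their agreement is not independent. At Differentiated, KAT2AB_KD was higher than KAT2B_KD for the 6 SPRR2 members, by 1.96 to 2.36 (adjusted p 0.000446 to 0.00208), and for SPRR4, by 4.94 ± 0.76 (adjusted p = 0.000775), making 7 of 10 members (6.5% of all genes were higher). SPRR1A differed by 0.20 ± 0.34 (adjusted p = 0.770), SPRR1B by 0.07 ± 0.33 (adjusted p = 0.929) and SPRR3 by 0.08 ± 0.36 (adjusted p = 0.929). All 7 calls held on leaving out any 1 of the 4 libraries (largest adjusted p = 0.0232), and the summed SPRR2 rows passed at 2.07 ± 0.53 (adjusted p = 0.0155).

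KAT2A_KD was likewise higher than KAT2B_KD at Differentiated for the 6 SPRR2 members, by 1.61 to 1.89 (adjusted p 0.00973 to 0.0225), and for SPRR4, by 4.51 ± 0.76 (adjusted p = 0.00513), again 7 of 10 (2.02% of all genes were higher). The count went to 0 without KAT2A_KD Differentiated library 1 or KAT2B_KD Differentiated library 2. The summed SPRR2 rows differed by 1.65 ± 0.52 and did not pass (adjusted p = 0.120). KAT2AB_KD against KAT2A_KD gave 0 of 10 (0.317% of all genes in either direction), with 0 at an unadjusted p under 0.05 and 0 by DESeq2, and values of -0.63 to 0.47. Of all tested genes, 1533 had an unadjusted p under 0.05 there.

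Before differentiation the same contrasts were carried by the SPRR1 and SPRR3 genes too. At Subconfluent, KAT2AB_KD was higher than KAT2B_KD for 7 of 10 members (2.09% of all genes were higher), among them SPRR1A by 4.51 ± 0.45 (adjusted p = 5.75e-06) and SPRR3 by 4.82 ± 0.64 (adjusted p = 0.000124). At Confluent 9 of 10 were higher, all but SPRR2G (1.26% of all genes were higher), with SPRR1B at 3.20 ± 0.38 (adjusted p = 7e-05). The Subconfluent count was 4 without KAT2AB_KD library 1 or KAT2B_KD library 1 and 3 without KAT2B_KD library 2, and the Confluent count 3 without KAT2B_KD library 1. In each of these fits SPRR1A, SPRR1B and SPRR3 passed, whereas SPRR4, at least 5.25-fold higher at Confluent (adjusted p = 0.0437), was lost on leaving out any 1 library. The summed SPRR2 rows were higher by 2.82 ± 0.63 at Subconfluent (adjusted p = 0.0165) and 2.85 ± 0.58 at Confluent (adjusted p = 0.0106). COL1A1 was also higher in KAT2AB_KD than in KAT2B_KD at Subconfluent, by 2.49, and its part was not tested.

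KAT2A_KD was higher than KAT2B_KD at Subconfluent for 4 of 10 members (0.476% of all genes were higher), with SPRR1A at 3.84 ± 0.44 (adjusted p = 0.000116), SPRR1B at 3.58 ± 0.41 (adjusted p = 0.000116) and SPRR3 at 4.49 ± 0.66 (adjusted p = 0.00134). The fourth, SPRR2F, had 3 reads over both KAT2B_KD libraries, which gave a ratio of 15.9 with a 95% counting interval of 5.11 to 79.7, and it passed in no fit that left out 1 library. At Confluent SPRR1A, SPRR1B and SPRR3 were higher by 2.26 to 2.98 (adjusted p 0.00490 to 0.0130; 0.254% of all genes were higher), and 0 passed without KAT2A_KD library 1 or KAT2B_KD library 1. The summed SPRR2 rows did not pass at Subconfluent (2.46, adjusted p = 0.132) or Confluent (1.75, adjusted p = 0.413). By DESeq2, 7 members passed at Subconfluent and 6 at Confluent. KAT2AB_KD against KAT2A_KD gave 0 of 10 at Subconfluent (0% of all genes in either direction), with 0 members at an unadjusted p under 0.05 and 0 by DESeq2, and 0 at Confluent (0.00635%), with 8 unadjusted and 0 by DESeq2. Of all tested genes, 819 had an unadjusted p under 0.05 in that comparison at Subconfluent and 491 at Confluent.

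The balance between the SPRR2 rows and the SPRR1 and SPRR3 rows within a library needs no scaling between libraries. In Differentiated libraries, the SPRR2 rows summed to 0.761 and 0.628 times the summed counts of SPRR1A, SPRR1B and SPRR3 in KAT2AB_KD, 0.348 and 0.395 times in KAT2A_KD and 0.1995 and 0.160 times in KAT2B_KD, against 0.273 and 0.263 times in NT. No group overlapped another. With 2 libraries against 2, an exact two-sided permutation test cannot give a p under 0.333, so this ratio carries no test of its own. At Confluent the ratio was 0.248 and 0.342 in KAT2AB_KD, 0.211 and 0.289 in KAT2A_KD and 0.358 and 0.366 in KAT2B_KD, against 0.436 and 0.0871 in NT, and the NT libraries spanned all the others.

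**Figure D4:**
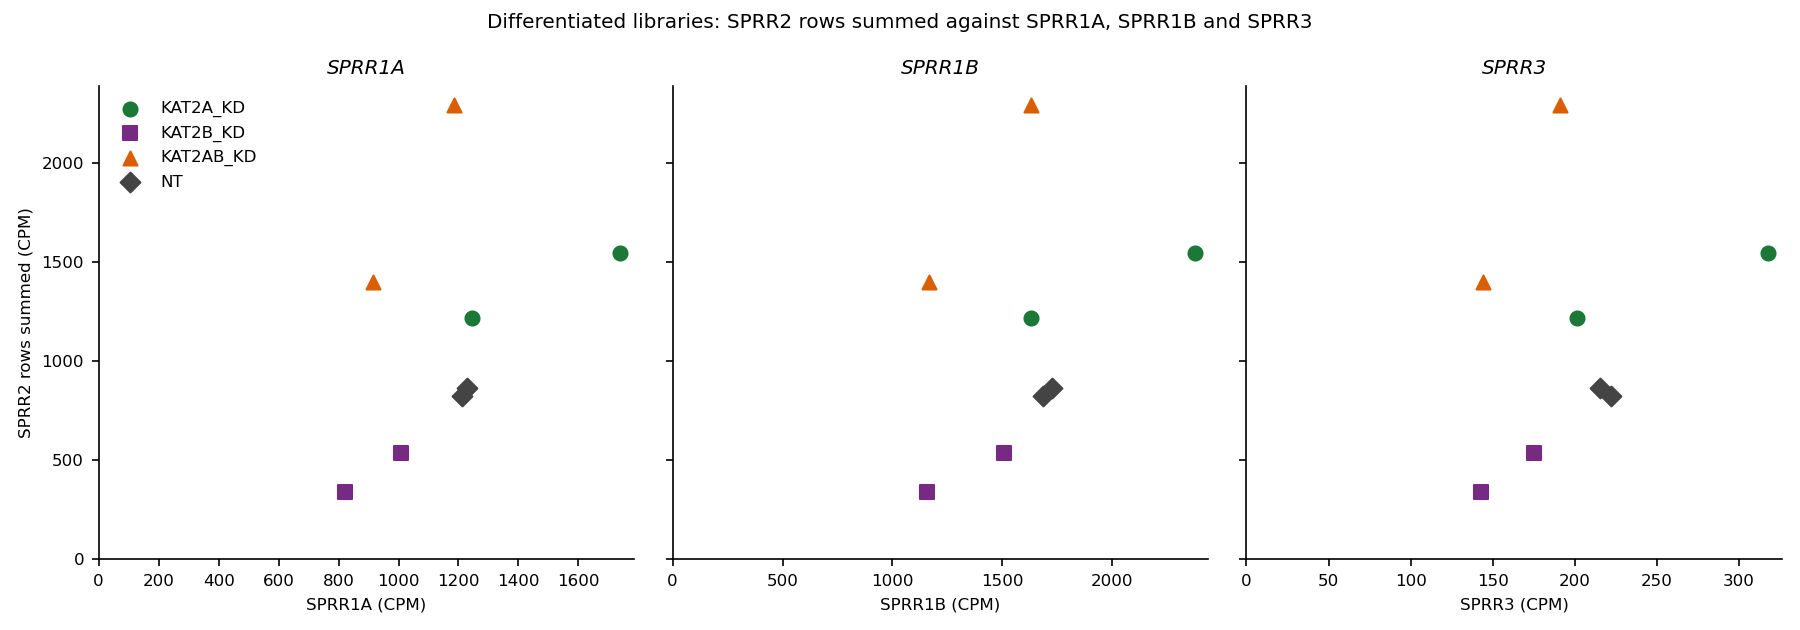
SPRR2 rows summed (CPM) against SPRR1A, SPRR1B and SPRR3 (CPM) in the 8 Differentiated libraries; each point is 1 library, coloured by genotype. The 2 KAT2AB_KD libraries (2290 and 1397 CPM of SPRR2) lie above the 2 KAT2B_KD libraries (537 and 340 CPM), while their SPRR1A levels overlap (1184 and 914 against 1008 and 821 CPM).

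The gain from Confluent to Differentiated was compared between each knockdown and NT as an interaction. In KAT2AB_KD the gain was smaller than in NT for SPRR1A, by -2.26 ± 0.49 (adjusted p = 0.0236), and for SPRR1B, by -2.43 ± 0.48 (adjusted p = 0.0122), where 0.609% of all genes had a smaller gain. The gain itself was 4.09 in KAT2AB_KD and 6.35 in NT for SPRR1A, and 3.85 in KAT2AB_KD and 6.28 in NT for SPRR1B. The 6 SPRR2 members gave -1.62 to -1.21 and did not pass (adjusted p 0.197 to 0.639), nor did their summed rows (-1.39 ± 0.74, adjusted p = 0.496). Without NT Confluent library 1, 0 members passed, and the SPRR1A call was also lost without any 1 of KAT2AB_KD Confluent library 1, KAT2AB_KD Differentiated library 2 and the NT Differentiated libraries 1 and 2. COL1A1 had a smaller gain too (-1.76), and its part was not tested. The interaction gave 0 of 10 in KAT2A_KD (0.616% of all genes in either direction), with 1 at an unadjusted p under 0.05, and 0 of 10 in KAT2B_KD (0.888%), with 1 unadjusted, and by DESeq2 both counts were 0. In KAT2AB_KD 9 members had an unadjusted p under 0.05, 4 passed by DESeq2 and 8 passed with no filter on low counts (2.59% of all genes). Of all tested genes, 1499 had an unadjusted interaction p under 0.05 in KAT2A_KD, 1813 in KAT2B_KD and 1910 in KAT2AB_KD.

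Among the listed genes at Differentiated, most LCE genes were lower in KAT2B_KD and some were higher in KAT2AB_KD than in NT. Of all genes, 1.67% were higher and 3.18% lower in KAT2B_KD, 1.57% higher and 1.17% lower in KAT2AB_KD, and 0.92% higher and 0.298% lower in KAT2A_KD. In KAT2B_KD against NT, 17 of 18 LCE genes and 10 of 21 envelope genes fell, among them LOR, which encodes loricrin (-4.56), and CDSN, which encodes corneodesmosin (-3.29), while S100A11 rose by 0.97. In KAT2AB_KD against NT, 6 of 18 LCE genes rose, LCE3E by 2.12, with 2 envelope genes (S100A7 and KPRP) higher and 0 lower. In KAT2A_KD against NT, 0 LCE genes passed and 1 envelope gene, S100A11, rose by 1.37. Of the 32 transcription factors, KAT2B_KD had 1 higher and 4 lower, KLF4 falling by 1.02, KAT2AB_KD had 2 higher and 1 lower, and KAT2A_KD had 2 higher and 0 lower, counts of a few genes that say little beside the shares over all genes. FOS was higher in all 3 knockdowns (2.28 to 2.30 in KAT2B_KD and KAT2AB_KD, and 2.16 in KAT2A_KD).

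Members also differed in how closely they tracked each other. Over the 8 Differentiated libraries, Pearson's r of log2 CPM was 0.978 to 0.986 among SPRR1A, SPRR1B and SPRR3, 0.966 to 0.999 among the SPRR2 members, and 0.930 to 0.970 between SPRR2 members and SPRR4. Between the SPRR1 or SPRR3 genes and the SPRR2 members it was 0.389 to 0.614. Over all 24 libraries, which span the 3 stages, the same pairs gave 0.939 to 0.969. These are descriptions over libraries that share 4 genotypes, and the SPRR2 rows may share reads.

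Outside the family, the genes most like SPRR1A and SPRR1B over 24 libraries were SLPI, KRTDAP and PI3 (r 0.989 to 0.993), and the same 3 came first for SPRR3 (0.976 to 0.989). SERPINB3 and SERPINB4 were among the 3 nearest genes of SPRR2A, SPRR2B, SPRR2D, SPRR2E and SPRR2F (0.975 to 0.983). FLG, DAAM1 and NIPAL4 were nearest to SPRR2G (0.983 to 0.984), and LCE3B, LCE3C and LCE2B to SPRR4 (0.948 to 0.957). The nearest gene over the 8 Differentiated libraries was MESDC2 for SPRR1A, CLU for SPRR1B and SPRR3, and CEACAM1 for SPRR4. It was ARHGAP31 for SPRR2A and SPRR2D, SH3PXD2A-AS1 for SPRR2B and SPRR2E, ELF5 for SPRR2F and CD59 for SPRR2G. These r ran from 0.972 to 0.993. Each was picked as the highest among all tested genes outside the family over only 8 libraries, and carries no test.

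RefSeq promoters (GRCh38.p14) were available for 8 of the 10 members, and those of 5 are shown. The 5 were picked from the groups that moved together, and SPRR2B, SPRR2G and SPRR3 are left out. Each line gives the 150 bases before the annotated start, 5′ to 3′ on the gene's strand, with capitals at matches to the motifs AP-1 (TGANTCA), ETS (AGGAAG), KLF (CACCC), octamer (ATGCAAAT), grainyhead (AACCNGTT) and TATA box (TATAAA), searched on both strands. SPRR1A lies at chr1:152983931-152984080 (plus strand), SPRR1B at chr1:153031053-153031202 (plus), SPRR2A at chr1:153057513-153057662 (minus), SPRR2F at chr1:153113517-153113666 (minus) and SPRR4 at chr1:152970498-152970647 (plus).
SPRR1A: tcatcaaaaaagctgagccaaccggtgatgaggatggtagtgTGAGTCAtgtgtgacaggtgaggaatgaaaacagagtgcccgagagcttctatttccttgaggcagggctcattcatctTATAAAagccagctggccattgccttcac
SPRR1B: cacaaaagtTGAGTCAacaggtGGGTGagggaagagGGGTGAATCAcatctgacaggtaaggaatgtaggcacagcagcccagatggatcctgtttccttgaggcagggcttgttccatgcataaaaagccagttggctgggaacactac
SPRR2A: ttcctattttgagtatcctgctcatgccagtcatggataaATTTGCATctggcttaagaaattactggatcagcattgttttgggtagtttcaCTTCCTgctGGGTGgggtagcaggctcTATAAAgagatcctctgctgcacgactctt
SPRR2F: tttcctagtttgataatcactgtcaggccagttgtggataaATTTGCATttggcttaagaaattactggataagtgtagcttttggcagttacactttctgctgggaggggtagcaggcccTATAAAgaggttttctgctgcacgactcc
SPRR4: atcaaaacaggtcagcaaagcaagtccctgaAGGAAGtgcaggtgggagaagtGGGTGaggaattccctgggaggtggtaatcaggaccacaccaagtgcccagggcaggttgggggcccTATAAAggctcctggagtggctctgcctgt
Over the full window (250 bases before to 50 after the start), an AP-1 match was found in 6 of the 8 members' promoters and in 7.71% of 35116 promoters, a TATA box in 7 of 8 and 11.53%, and an octamer in 3 of 8 and 1.77%. The 3 with the octamer were SPRR2A, SPRR2B and SPRR2F, at positions -110, -108 and -109. SPRR2G, the other SPRR2 member with a promoter, held no octamer, ETS or KLF match. ETS matches were in 5 of 8 against 33.6% of all promoters, KLF matches in 6 of 8 against 59.9%, and a grainyhead match in 1 of 8 against 1.73%. SPRR4 held no AP-1 or octamer match in its window. In SPRR1B the KLF match at -114 overlaps the AP-1 match at -111. The motifs were chosen with earlier results of these data known. Matches are descriptions of these letters and not binding sites.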

How the data were processed

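Total RNA of nTERT-1 keratinocytes was enriched for polyadenylated RNA and made into directional libraries that were read from a single end, per the labels' protocols. The deposited table gives the authors' raw read count per gene for 24 libraries, and 1 count column that matches no sample was not used. Bowtie2, featureCounts, FastQC, DESeq2 and the build hg19 are named in the submitters' processing notes, without roles. Read length, annotation, the strand setting and the treatment of reads with several matches are not given in the sources used here.

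The 10 members, the gene lists and the promoter motifs were chosen with earlier results of these data known. The counts were fitted with edgeR 4.0.16 (R 4.3.3) in 1 quasi-likelihood model with 12 groups and TMM scaling, after its default filter on low counts, which left 15757 genes. The 29 comparisons (genotypes within a stage, stages within a genotype and 3 interactions) were each adjusted by Benjamini-Hochberg over all tested genes, with a threshold of 0.05. Log2 CPM for correlations used a prior count of 2. A group with 0 reads gives a bound at 3 counts over the group, and a group with 1 to 3 reads a ratio with an exact interval at 95%, both covering counting error only. One gene of the transcription factor list is not reported here. The text names all members, KAT2A and KAT2B, up to 3 genes of each list with the lowest p per direction, and the 3 genes nearest each member; COL1A1 is such a gene of the fibroblast list. The script was tested on simulated counts.

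Alternatives were DESeq2 1.42.0, RLE scaling, library totals alone, no filter, only the compared groups, the deposited replicate number as a block, the SPRR2 rows summed, and each library left out in turn. Over 66 pairs of groups, libraries that share a replicate number had deviations correlated at -0.256 to 0.406 (median 0.118, over 0.1 in 37 pairs). These values do not settle whether the libraries were paired. Equal numbers were not read as pairs in the main fit, and the replicate block is the alternative. Sequences are from GENCODE 29 (coding) and RefSeq GRCh38.p14 (promoters), a later build than that of the counts, and no coordinate was converted.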

Additional observations from a re-analysis of the deposited data

Results flagged for a closer look

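For 2 results the change between stages differed between genotypes by a test of the difference itself. The gain of SPRR1A from Confluent to Differentiated was smaller in KAT2AB_KD than in NT by -2.26 on the log2 scale, and that of SPRR1B by -2.43, in edgeR's interaction test with Benjamini-Hochberg adjustment (adjusted p = 0.0236 and 0.0122). At Differentiated the SPRR1A libraries were at 1184 and 914 CPM in KAT2AB_KD and 1229 and 1212 CPM in NT, and at Confluent at 65.1 and 57.9 CPM in KAT2AB_KD and 9.97 and 19.9 CPM in NT. Neither passed without NT Confluent library 1, and the SPRR1A call was also lost without any 1 of several other libraries, as given above.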

How the results depend on the processing

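The SPRR2 and SPRR4 difference between KAT2AB_KD and KAT2B_KD at Differentiated and the rise of SPRR genes at that stage held under every alternative run, except SPRR4 in KAT2B_KD, which missed the threshold under DESeq2, library totals alone, no filter and any library left out. RLE scaling moved no count of members by over 1.5 times. Library totals alone shifted the median of all genes by -0.44 to 0.22 (log2) and gave 1 member for KAT2AB_KD Confluent over Subconfluent, 1 for KAT2B_KD and 3 for KAT2AB_KD over NT at Differentiated. Of all genes, 0.419%, 3.41% and 2.75% passed in either direction in these comparisons, in that order. With no filter on low counts, Confluent over Subconfluent gave 3 in KAT2A_KD, 4 in KAT2B_KD, 9 in KAT2AB_KD and 8 in NT. Calls rose over all genes too, to 0.916%, 2.59%, 1.40% and 2.03% from 0.235%, 1.61%, 0.609% and 0.901% in the main fit. Over NT, no filter gave 8 for KAT2A_KD and 3 for KAT2B_KD at Subconfluent, and 7 for KAT2A_KD and 3 for KAT2B_KD at Confluent. At Differentiated it gave 1 for KAT2A_KD, 7 for KAT2B_KD and 6 for KAT2AB_KD. In the same order, 1.05% and 0.491% of all genes passed in either direction at Subconfluent, and 1.43% and 1.001% at Confluent. At Differentiated the shares were 2.39%, 5.35% and 3.69%. Shares in the main fit were lower, at 0.343% and 0.0888%, 0.647% and 0.463%, and 1.22%, 4.85% and 2.74%. No filter also gave 9 for KAT2A_KD over KAT2B_KD at Subconfluent, 8 for the same at Confluent, 5 for KAT2AB_KD over KAT2A_KD at Confluent, 1 for the KAT2B_KD interaction and 8 for the KAT2AB_KD interaction. Of all genes, 0.992%, 0.963%, 0.435%, 1.63% and 2.59% passed in these comparisons, in that order. The replicate block gave 4 for KAT2B_KD (5.52% of all genes in either direction) and 2 for KAT2AB_KD (3.15%) over NT at Differentiated. The block moved no other count of members by over 1.5 times. Fitting only the compared groups gave 0 for Confluent over Subconfluent in KAT2B_KD, KAT2AB_KD and NT, 0 for KAT2A_KD and 3 for KAT2AB_KD over NT at Subconfluent, 2 for KAT2A_KD over NT at Confluent and 0 for KAT2A_KD over KAT2B_KD at Confluent, with fewer libraries to estimate the spread. DESeq2 gave 8 for Confluent over Subconfluent in KAT2AB_KD and 8 in NT, 8 for KAT2A_KD and 2 for KAT2B_KD over NT at Subconfluent, 4 for KAT2A_KD and 1 for KAT2B_KD over NT at Confluent, 5 for KAT2AB_KD over NT at Differentiated, 7 and 6 for KAT2A_KD over KAT2B_KD at Subconfluent and Confluent, and 4 for the KAT2AB_KD interaction. Shares over all genes were not counted for DESeq2 or for the fits of only the compared groups. The cause of these changes in the counts of members was not tested.

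With each library left out in turn, the count of members ran from 0 to 0 for Confluent over Subconfluent in KAT2AB_KD, 0 to 3 in KAT2B_KD and 0 to 1 in NT. Over NT it ran from 0 to 0 for KAT2A_KD and 3 to 8 for KAT2AB_KD at Subconfluent, 0 to 1 for KAT2B_KD and 2 to 7 for KAT2AB_KD at Confluent, and 0 to 1 for KAT2B_KD and 0 to 2 for KAT2AB_KD at Differentiated. KAT2A_KD over KAT2B_KD gave 3 to 3, 0 to 3 and 0 to 7 at Subconfluent, Confluent and Differentiated. KAT2AB_KD over KAT2B_KD gave 3 to 7 at Subconfluent and 3 to 8 at Confluent. The interactions gave 0 to 1 for KAT2B_KD and 0 to 2 for KAT2AB_KD. Differences that had not passed and changed sign, on the log2 scale, were those of KAT2B_KD over NT at Confluent for SPRR2A (-1.97 to 0.11), SPRR2B (-1.23 to 0.14), SPRR2D (-1.17 to 0.36), SPRR2E (-0.68 to 0.53), SPRR2F (-0.60 to 0.89, and -0.33 with the rows summed) and SPRR2G (-2.05 to 1.45). At Subconfluent they were SPRR2B (-0.31 to 5.09) and SPRR2E (-0.065 to 5.08), whose upper values are fits against an NT library with 0 reads and are no measure of size. KAT2AB_KD over KAT2A_KD at Differentiated changed sign for SPRR2A (-0.0053 to 0.64), SPRR2B (-0.013 to 0.76) and SPRR2E (-0.035 to 0.84), and over KAT2B_KD for SPRR1B (-0.18 to 0.29) and SPRR3 (-0.13 to 0.26). KAT2A_KD over NT at Differentiated did so for SPRR1B (-0.071 to 0.49), SPRR2G (-0.032 to 0.84) and SPRR3 (-0.12 to 0.55). Before differentiation SPRR4 had at most 12 reads in a library and SPRR2G at most 31, so small differences in these genes were not detectable at this depth.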
